A study of Mus musculus with 2 samples.

Results

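Neutrophils store antimicrobial proteins in granules that are filled one after another while the cell matures, and 9 genes for such proteins were followed here out of 34285 genes counted. They were picked by name. The primary (azurophil) class held Mpo, Elane, Prtn3 and Ctsg, the secondary (specific) class held Ltf, Camp, Ngp and Lcn2, and Mmp8 stood alone as the later class. That last name is a label for grouping transcripts and does not say which granule stores the Mmp8 protein. All 9 symbols were found once each in both libraries. Mandibular first molars with the tissue around them were taken from C57BL/6J mice at PN15.5 (days after birth), digested with Dispase and collagenase, and profiled on the 10x Genomics platform with no sort for blood cells. Lipo-Clo mice had received clodronate liposomes, an agent that kills phagocytes which take them up, at 40 µg/g, first at PN3.5, again at PN6.5 and at PN9.5, and last at PN12.5. Lipo-PBS mice had received vehicle liposomes on the same days. Both groups shared strain, age and injection schedule. Each condition was 1 library, and the number of mice behind a library is not given in the sources used here. There is therefore no test between the conditions, and every interval below is at the 95% level and covers counting error only.

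Myeloperoxidase (Mpo) makes hypochlorous acid, and neutrophil elastase (Elane), proteinase 3 (Prtn3) and cathepsin G (Ctsg) are serine proteases. Their transcripts are known from promyelocytes, the earliest granule-forming stage in bone marrow. Lactoferrin (Ltf) binds iron, Camp is the precursor of a cathelicidin antimicrobial peptide, Ngp is a cystatin-related granule protein, and lipocalin 2 (Lcn2) traps bacterial siderophores. These belong to the next stages, the myelocyte and metamyelocyte, and depend in mice on the transcription factor C/EBP-epsilon, while PU.1 and C/EBP-alpha are known for driving the primary genes. Mmp8 is neutrophil collagenase. Transcripts of the granule proteins decline as a neutrophil leaves the marrow, and the proteins stay behind in the granules.

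The stretches just before the transcription start are shown for a pair of primary and a pair of secondary members. Letters that C/EBP factors or PU.1 are known to bind occur in each of them. All 9 members matched the RefSeq promoter table for GRCm38.p6. Each line below gives the 160 bases ending at the last base before the start, 5′ to 3′ on the strand of the gene, which is the plus strand for all 4. Elane lay at chr10:79886152-79886311, Prtn3 at chr10:79879507-79879666, Ltf at chr9:111019132-111019291 and Ngp at chr9:110419648-110419807. Capitals mark TTNNGNAA, a C/EBP-type motif, or GAGGAA, a PU.1-type motif, either of them on either strand, and in these 4 stretches no match of one motif overlapped a match of the other.
Elane: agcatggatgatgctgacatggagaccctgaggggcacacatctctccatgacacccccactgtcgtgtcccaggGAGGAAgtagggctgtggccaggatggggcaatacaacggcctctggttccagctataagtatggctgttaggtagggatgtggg
Prtn3: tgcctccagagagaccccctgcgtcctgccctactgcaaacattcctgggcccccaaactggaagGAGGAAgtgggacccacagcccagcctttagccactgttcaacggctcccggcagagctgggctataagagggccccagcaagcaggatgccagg
Ltf: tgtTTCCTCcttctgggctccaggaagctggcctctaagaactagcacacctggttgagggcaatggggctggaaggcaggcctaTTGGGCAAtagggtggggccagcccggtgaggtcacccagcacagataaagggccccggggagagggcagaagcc
Ngp: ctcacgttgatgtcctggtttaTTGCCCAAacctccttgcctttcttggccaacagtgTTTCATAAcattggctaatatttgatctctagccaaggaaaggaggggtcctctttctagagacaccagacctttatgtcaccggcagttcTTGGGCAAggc

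In the window of 250 bases before to 50 bases after the start, TTNNGNAA was found in 0 of the 4 primary members and in Ltf (2 matches), Ngp (3), Lcn2 (1) and Mmp8 (2), but not in Camp. Of 32851 promoters of the same length, 40.7% held it. The letters GAGGAA were found in all 4 primary members and in Ltf, Lcn2 and Mmp8, and not in Camp or Ngp, against 28.3% of all promoters. In Elane the match began 85 bases and in Prtn3 95 bases before the start. Those of Mpo began 247 and 224 bases and that of Ctsg 216 bases before it, outside the length shown. With 9 members these counts describe the genes, and no difference between the classes is read from them. A match is a run of letters and not a shown binding site. Elane and Prtn3 are neighbours on chromosome 10, and Ltf, Camp, Ngp and Mmp8 all lie on chromosome 9. In the annotation Mpo overlaps the long noncoding gene Gm34064 and Mmp8 overlaps Gm31751. Only the spans of the genes were compared, without strand or exons. Whether reads of those pairs were shared was not tested.

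The Lipo-Clo library held 9362 cells and 31053404 UMIs and the Lipo-PBS library 9653 cells and 30537834 UMIs. After filters 8254 and 8261 cells were kept, with medians of 2567 and 2678 UMIs. Mitochondrial genes made up 0.370% of the kept Lipo-Clo UMIs, against 1.73% for Lipo-PBS. The share was lower in Lipo-Clo in every cell class below, though in basophils or mast cells only at 0.428% against 0.474%. The libraries shared 30 cell barcodes. Cells were clustered without the 9 members, 25 other granule genes and 8 regulators, so that these genes did not themselves form the clusters. Genes whose levels run with the members, such as Ms4a3 and S100a8, were not held out. The clusters are therefore not independent of the members. The 1626 cells of the myeloid clusters were then clustered again.

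That step gave 3 subclusters that are treated below as neutrophil stages. A progenitor-like subcluster of 143 Lipo-Clo and 19 Lipo-PBS cells was marked by Ms4a3, Nkg7 and Plac8, 3 of 7 genes listed for granulocyte-monocyte progenitors. Its stem-type markers were near 0, with Cd34 at 7.31, Kit at 9.96, Flt3 at 3.99 and Sox4 at 5.31 UMIs per 1000000 UMIs (CPM), and it was rich in cell cycle genes, with Mki67 at 115 CPM. The name covers dividing precursors more than early progenitors. Which of these cells belong to the granulocyte line and which to the monocyte line was not tested. An immature neutrophil-like subcluster of 220 and 73 cells carried 8 of 8 listed markers, among them Ly6g, and a mature neutrophil-like subcluster of 127 and 55 cells carried 12 of 12, among them Cxcr2 and Csf3r. Monocytes (62 and 28 cells), macrophages (133 and 170), dendritic cells (81 and 62), osteoclasts (43 and 7) and basophils or mast cells (8 and 6) were also named. The 5 other subclusters carried markers of mesenchyme, B cells or epithelium beside myeloid genes, or of several classes, and are called mixed.

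Primary granule transcripts were nearly confined to the progenitor-like cells among the neutrophil stages. Of 27667 primary UMIs in all kept cells, 78.2% (77.7 to 78.7%) lay in its 162 cells, out of 16515 kept. Immature neutrophil-like cells held 0.502% and mature neutrophil-like cells 0.0434%. The mixed subclusters held 13.3% and cells outside the myeloid clusters 7.03%. The libraries differed in this, with 1351 of 24356 primary UMIs outside the myeloid clusters in Lipo-Clo and 595 of 3311 in Lipo-PBS.

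Elane stood at 5175 CPM in the progenitor-like cells of Lipo-Clo and at 5820 CPM in those of Lipo-PBS. In immature neutrophil-like cells it was at 60.7 and 11.6 CPM, and in mature ones at 8.46 CPM and at 0. With both libraries summed, its level fell 103-fold between progenitor-like and immature cells, a log2 difference of 6.69 (6.26 to 7.17). The drop was seen in both libraries, far beyond counting error.

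Prtn3, the protease encoded next to it, showed the same course at 7041 and 5999 CPM in progenitor-like cells and 103 CPM and 0 in immature ones, an 85.2-fold difference over both libraries. Mpo stood at 1032 and 1071 CPM, then at 38.0 CPM and 0, a 34.4-fold difference. Ctsg stood at 1186 and 580 CPM, then at 6.07 CPM and 0, a 237-fold difference that rests on 4 UMIs in the immature cells. In Lipo-PBS the 73 immature cells held 2 primary UMIs in all and the 55 mature cells none. In Lipo-Clo a single immature cell held 84 of the 137 primary UMIs of its stage, among them 26 of 40 for Elane, 34 of 68 for Prtn3 and 23 of 25 for Mpo. Without that cell, an alternative added after the data had been seen, the immature levels of Lipo-Clo were 21.5 CPM for Elane, 52.1 CPM for Prtn3 and 3.06 CPM for Mpo. The differences over both libraries then came to 270-fold, 169-fold and 427-fold, and to 314-fold for Ctsg.

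Secondary granule transcripts were present in progenitor-like cells, peaked in immature neutrophil-like cells and were low in mature ones. Of 225010 secondary UMIs, 28.8% lay in progenitor-like cells, 36.9% in immature cells and 1.44% in mature cells. The mixed subclusters held 26.5%, and 5.05% lay outside the myeloid clusters. By library, 4791 of 180650 secondary UMIs of Lipo-Clo and 6564 of 44360 of Lipo-PBS lay outside the myeloid clusters.

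Camp was at 22928 and 40019 CPM in progenitor-like cells of Lipo-Clo and Lipo-PBS, at 54872 and 51917 CPM in immature cells and at 2979 and 2755 CPM in mature cells. The fall from immature to mature was 18.5-fold over both libraries. Ngp went from 14731 and 16318 CPM through 35116 and 28105 CPM to 3656 and 1430 CPM, a fall of 10.5-fold at the last step. Ltf went from 617 and 902 CPM through 2963 and 3386 CPM to 482 and 384 CPM. Over both libraries the log2 ratio of progenitor-like over immature cells was -2.26 for Ltf, -1.43 for Lcn2, -1.18 for Ngp and -1.16 for Camp, so Ltf was the lowest of the 4 at the early stage relative to its peak.

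Lcn2 kept its level longest. It stood at 3427 and 2035 CPM in progenitor-like cells, at 9673 and 6298 CPM in immature cells and at 5014 and 1971 CPM in mature cells, a last step of 2.03-fold. In both libraries Lcn2 and Ltf fell less at this step than Camp and Ngp did.

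Mmp8 ran later than both classes. It was at 35.9 CPM (50 UMIs) and 17.9 CPM (2 UMIs) in progenitor-like cells, at 633 and 925 CPM in immature cells and at 1007 and 924 CPM in mature cells. Over both libraries the log2 ratio of immature over mature cells was -0.51 (-0.72 to -0.31). That step came from Lipo-Clo, since the immature and mature levels of Lipo-PBS lay within counting error of each other. The plot of levels by stage shows the 3 courses side by side.

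**Figure D1:**
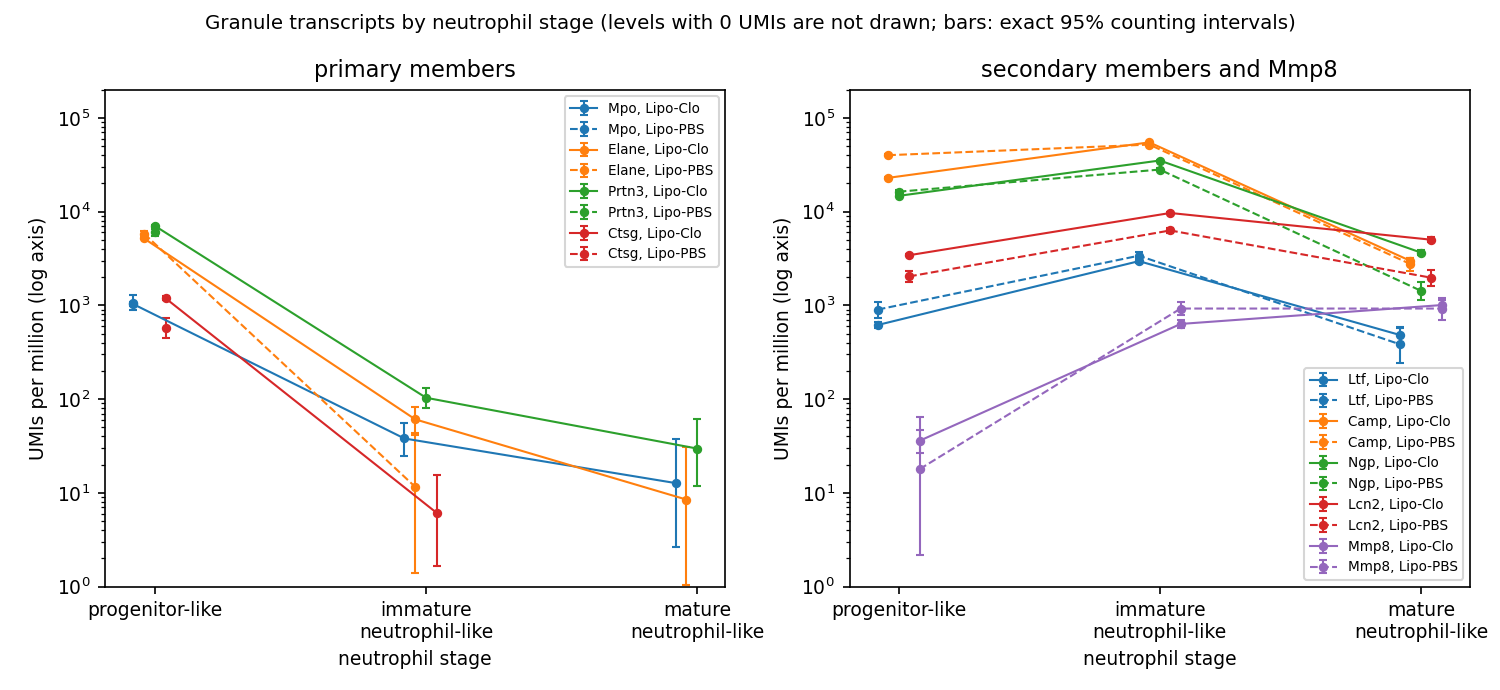
Level of each member (CPM, log axis) in the 3 neutrophil stages of each library, with exact 95% counting intervals as bars and levels of 0 not drawn. The primary members are far lower after the progenitor-like stage, the secondary members peak in the immature stage, and Mmp8 stays at 924 CPM or above in the mature stage.

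Within the progenitor-like subcluster the cells were far from alike. Primary UMIs made up 0 to 7.95% of a cell's UMIs with a median of 0.165%, and secondary UMIs 0 to 23.3% with a median of 0.177%. With every cell thinned to 500 UMIs, 48 of 162 cells (29.6%) had primary UMIs alone, 41 (25.3%) had both classes, 45 (27.8%) had secondary UMIs alone and 28 (17.3%) had neither. Before thinning the medians were 9441 UMIs per Lipo-Clo cell and 4746 per Lipo-PBS cell. Of 293 immature cells, 0 had primary UMIs alone, 6 had both and 262 (89.4%) had secondary UMIs alone. Of 182 mature cells, 123 (67.6%) had secondary UMIs alone.

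The progenitor-like cells were split by the share of their own UMIs that came from primary members, which is a cut along a range and not a cell type. The cuts at 0.1% and 1% left 68, 44 and 50 cells. Since the bands are set by the primary members, only the other genes are informative. Ltf was at 1671 CPM in the lowest band, 306 CPM in the middle band and 89.2 CPM in the highest. Mmp8 was at 79.7 CPM, 35.3 CPM and 0. Both transcripts were thus lowest where the primary ones were highest.

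Camp did not follow this order to the end, with 47135 CPM in the lowest band, 13602 CPM in the middle and 14221 CPM in the highest. Ngp, at 34130, 6564 and 6030 CPM, and Lcn2, at 7279, 2008 and 1249 CPM, were highest in the lowest band. Prss57, a further primary granule protease, was at 17.2, 18.8 and 237 CPM, and Ms4a3, a membrane protein of granulocyte precursors, at 96.9, 137 and 1434 CPM. Both were highest in the highest band. Cebpe, the gene of C/EBP-epsilon, was at 96.9, 40.0 and 242 CPM, highest in the band where Ltf was lowest. Mki67, a marker of dividing cells, was at 157, 125 and 76.2 CPM, with the lowest value in the highest band. Ly6c2, a gene listed for monocytes, was at 588, 878 and 804 CPM. Ly6g, listed for immature neutrophils, was at 68.9, 2.35 and 4.87 CPM. The bands hold 57, 40 and 46 Lipo-Clo cells and 11, 4 and 4 Lipo-PBS cells, so they mainly describe Lipo-Clo. Some secondary UMIs in these cells may be free RNA, whose levels are given at the end.

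**Figure D2:**
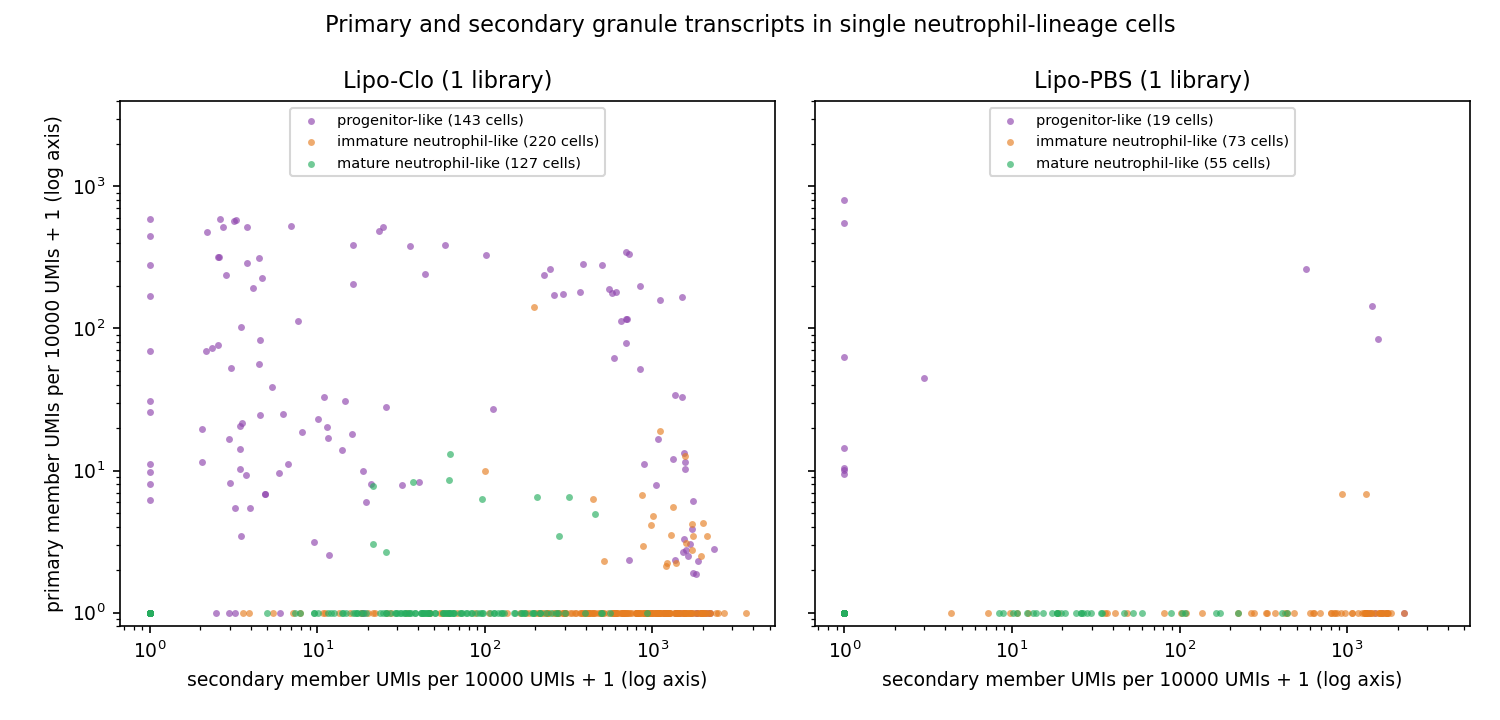
Each point is 1 cell of the 3 neutrophil stages, placed by its secondary member UMIs (x axis) and primary member UMIs (y axis) per 10000 UMIs plus 1, on log axes, with 1 panel per library. Progenitor-like cells spread along the y axis up to 7.95% of a cell's UMIs, while most immature and mature cells lie near its foot, apart from 1 immature Lipo-Clo cell at 1.41%.

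Other granule genes were counted by the stage at which their summed level was highest. The share of all genes with their peak at each stage was not counted, so these counts only describe the lists. Of 5 further primary genes, Prss57, Ctsc (the protease that activates the granule serine proteases) and Cd63 (a granule membrane protein) were highest in progenitor-like cells, Srgn (serglycin, the proteoglycan that packs granule contents) in mature cells, and Bpi had no UMI. Prss57 went from 108 to 10.8 CPM and then to 0. Ctsc and Cd63 were higher still in macrophages or in basophils or mast cells, so they do not mark the neutrophil line.

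Of 9 further secondary genes, 7 were highest in immature cells and 2, Hp and Chi3l1, in mature cells. Olfm4 went from 9.96 through 105 to 64.7 CPM and Cd177, a surface protein of neutrophils, from 69.7 through 315 to 167 CPM. Lyz2, lysozyme, was at 2020, 3698 and 1318 CPM in the stages and at 6548 CPM in monocytes. Among the stages, the 7 genes had their highest level where Ltf, Camp, Ngp and Lcn2 had theirs.

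Among 6 further late genes, 4 were highest in mature cells (Mmp9, Mmp25, Adam8 and Slc11a1) and 2 in progenitor-like cells (Fcnb and Hpse, the latter with 10 UMIs there). Mmp9, gelatinase B, went from 10.6 through 452 to 630 CPM, and was at 2411 CPM in osteoclasts, which use it to degrade bone matrix. Of 5 genes of secretory vesicles, the last compartment to form, 4 were highest in mature cells, and Fpr1, a receptor for bacterial peptides, went from 25.2 through 403 to 1015 CPM. Alpl, the fifth, had 24 UMIs over the stages.

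Of the 8 regulators, Cebpa, Gfi1, Myb and Cebpe were highest in progenitor-like cells and Runx1, Spi1, Cebpb and Cebpd in mature ones. Cebpe went from 140 through 86.6 to 30.6 CPM. Cebpb, a C/EBP factor of mature myeloid cells, was at 824, 565 and 2183 CPM. Cebpa (22, 1 and 1 UMIs) and Gfi1 (16, 3 and 0 UMIs) were read from few molecules. Spi1, the gene of PU.1, varied by 1.65-fold over the stages.

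Levels were then compared over 22 points, the myeloid subclusters with at least 10 cells in a library, which left out the basophils or mast cells. Among 8619 genes, those whose log2 levels ran most like the summed primary members were Ms4a3 (Pearson's r 0.91), Ap3s1 (0.86), Nkg7 (0.86), Cdca7 (0.85) and 1700020L24Rik (0.84). Those most like the summed secondary members were S100a8 (0.95), Wfdc21 (0.93), Chil3 (0.93), S100a9 (0.93) and Anxa1 (0.88). Ms4a3 and Nkg7 are also markers that named the progenitor-like subcluster. All the genes named for the secondary members are in the marker lists for neutrophils or immature neutrophils. The rankings are therefore not independent of the naming. The points include mixed subclusters, share libraries, differ in depth and in number of cells, and the coefficients are descriptions.

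In the other myeloid cells 1 member stood out. Ctsg was at 1304 CPM (32 UMIs) in the 8 Lipo-Clo and 1446 CPM (18 UMIs) in the 6 Lipo-PBS cells named basophil or mast cell, while Elane had no UMI in them. Cathepsin G is known from mast cells as well as neutrophils. Of those 32 Lipo-Clo UMIs, 23 lay in 1 cell. The secondary members were there in Lipo-Clo alone, with 531 UMIs against 0, and so were most S100a8 and S100a9 UMIs, 760 against 1, but 1 cell held 524 of the 531 and 754 of the 760. These are the transcripts of the neutrophil's most abundant cytosolic proteins and serve as its mark in what follows.

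Monocytes held Prtn3 at 600 CPM (119 UMIs) in Lipo-Clo and at 25.1 CPM (1 UMI) in Lipo-PBS. Elane was at 156 CPM (31 UMIs) and 0 there. A single Lipo-Clo cell held 76 of the 119 Prtn3 and 30 of the 31 Elane UMIs, and without it Prtn3 stood at 225 CPM and Elane at 5.24 CPM. S100a8 was at 14057 and 301 CPM in the same cells. The 28 Lipo-PBS monocytes had a median of 1307 UMIs against 2872 for the 62 of Lipo-Clo, and the part of depth in the difference was not tested.

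In macrophages Mpo and Ctsg had 0 UMIs in both libraries, against limits of 9.04 and 6.53 CPM that a count of 0 allows. Camp was at 108 and 39.2 CPM. After thinning to 500 UMIs, 8.27% of macrophages of Lipo-Clo and 1.76% of Lipo-PBS had a Camp UMI, inside the ranges of 4.28 to 12.9% and 1.13 to 6.31% for the 8 named classes outside the myeloid clusters. The macrophage value is therefore not read as expression by these cells. Dendritic cells held Camp at 3156 and 688 CPM and no Mpo, and after thinning 6.17% and 1.61% of them had a Camp UMI, so their UMIs sat in few cells. Osteoclasts held Camp at 99.0 and 22.2 CPM and no Mpo or Ctsg.

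**Figure D3:**
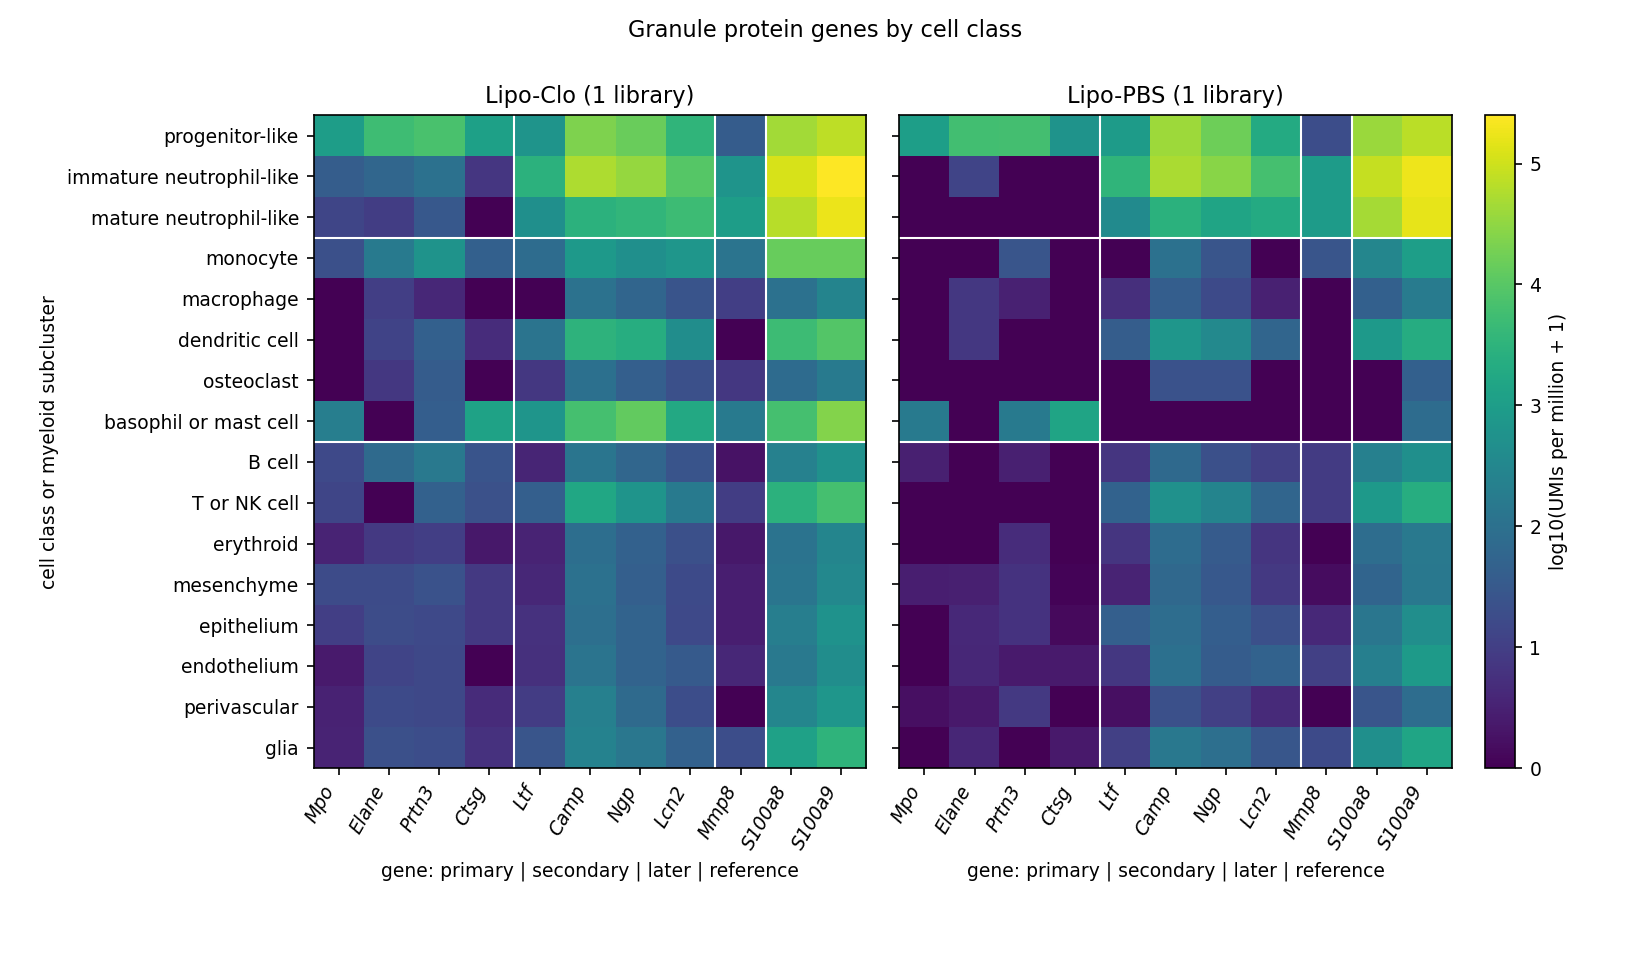
Level of each member and of S100a8 and S100a9, as the colour of log10(CPM + 1), by cell class (rows) and gene (columns), with 1 panel per library. Mpo, Elane and Prtn3 are bright in the progenitor-like row, Ctsg also in the row of basophils or mast cells, and Camp and Ngp leave a faint level in nearly every row.

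Clodronate and vehicle were compared first over all kept cells. Each of the 9 members had the higher level in Lipo-Clo. Primary UMIs summed to a log2 ratio of 2.82 (2.77 to 2.88) and secondary UMIs to 1.97 (1.95 to 1.98), beside a median of -0.09 over all genes compared. The single genes ran from 1.43 (1.26 to 1.61) for Mmp8, at 37.6 and 13.9 CPM, to 3.18 (2.98 to 3.39) for Ctsg, at 76.3 and 8.40 CPM. Camp was at 3628 and 1011 CPM and Prtn3 at 441 and 55.7 CPM. The primary sum thus differed more than the secondary one and Mmp8 least, although Lcn2, at 2.57, stood beside Elane, at 2.55.

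Of 4369 genes that were seen in 10% or more of the cells of 1 library or both, 0.664% were at least 2-fold higher in Lipo-Clo and 1.49% at least 2-fold lower. Camp, Ngp and Lcn2 were among those genes and all 3 were past 2-fold higher. The other 6 members did not pass the filter, although each was above 2-fold too. Because a gene may pass through 1 library alone, the count of members says no more than their values.

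The number of cells of each stage differed as well. Progenitor-like cells made up 1.73% (1.46 to 2.04%) of Lipo-Clo cells against 0.230% (0.139 to 0.359%) of Lipo-PBS cells, which is 2.91 (2.22 to 3.69) on the log2 scale. Immature cells differed by 1.59 and mature cells by 1.21 (0.74 to 1.69). Among cells of the 3 stages, 29.2% of the 490 from Lipo-Clo were progenitor-like, against 12.9% of the 147 from Lipo-PBS, and 25.9% and 37.4% were mature. The ranking of the summed ratios, primary above secondary above Mmp8, had the same order as that of the stage ratios. These rankings are not separate, since most primary UMIs lay in progenitor-like cells, and single genes such as Lcn2 did not keep the order. With 1 library per condition, an effect of the liposomes and a difference in how much marrow a dissection carried along cannot be told apart.

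Cells rich in primary UMIs were also counted, with no use of clusters. They are picked by the same UMIs that were summed above, so their number is no separate support. The cutoff is a raw count, and progenitor-like cells had medians of 9441 UMIs in Lipo-Clo and 4746 in Lipo-PBS. The part of depth in the ratio was not tested. At least 10 primary UMIs were found in 110 Lipo-Clo cells (1.33%, 1.10 to 1.60%) and in 20 Lipo-PBS cells (0.242%, 0.148 to 0.374%), a log2 ratio of 2.46 (1.76 to 3.23). Of the 110 cells 79 were progenitor-like, 20 were in mixed subclusters and 6 outside the myeloid clusters. Of the 20 cells these numbers were 7, 5 and 7. In Lipo-PBS 45.6% of primary UMIs lay in progenitor-like cells, against 82.6% in Lipo-Clo, so much of the Lipo-PBS signal sat in cells with other identities.

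Shares of other blood and bone cells were compared too. B cells were 6.34% of Lipo-Clo and 3.22% of Lipo-PBS, erythroid cells 5.05% and 3.68%, and osteoclasts 0.521% and 0.0847%. Dendritic cells (0.981% and 0.751%) had a log2 ratio of 0.39 (-0.11 to 0.89) and T or NK cells (1.13% and 1.34%) of -0.25 (-0.67 to 0.16), intervals that include 0. Their part in the member ratios was not tested. Macrophages, the cells the agent is meant to remove, were 1.61% and 2.06%.

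Within the neutrophil class, the cluster of 567 Lipo-Clo and 206 Lipo-PBS cells found before the myeloid cells were split, the members of the 3 classes parted. Primary members were higher in Lipo-Clo. Prtn3 was at 3520 and 1759 CPM, a log2 ratio of 1.00 (0.91 to 1.10), and Ctsg at 605 and 301 CPM, a ratio of 1.01 (0.78 to 1.25). Mpo differed by 0.76 (0.55 to 0.98) and Elane by 0.55 (0.46 to 0.64). The primary sum differed by 0.80 (0.74 to 0.86) in the class but by 0.10 (0.02 to 0.18) in progenitor-like cells. The Lipo-PBS class held 2500 primary UMIs, against 1509 in progenitor-like, 2 in immature and 0 in mature cells. The Lipo-Clo class held 18988, fewer than the 20118 of progenitor-like cells. The class, and the genes compared in neutrophils below, thus included cells outside the stages and missed some progenitor-like cells of Lipo-Clo.

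Secondary members as a sum differed by 0.08 (0.06 to 0.09). Lcn2 was higher in Lipo-Clo by 0.67 and Ngp by 0.17, while Camp stood at -0.05 and Ltf at -0.15. Mmp8 had a log2 ratio of -0.48 (-0.68 to -0.28). S100a8 and S100a9 took up 24.1% of the UMIs in neutrophils after clodronate and 18.2% after vehicle. With edgeR's TMM factors or DESeq2's size factors in place of library totals all ratios moved up by 0.47, the median gene went from -0.13 to 0.34, Camp (0.42) and Ltf (0.32 with TMM) turned positive and Mmp8 came to -0.01.

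Of 3252 genes compared in neutrophils, 2.43% were at least 2-fold higher in Lipo-Clo and 11.7% at least 2-fold lower. All members but Ctsg passed that filter, and with library totals Prtn3 alone reached 2-fold, at the limit itself. With TMM factors Prtn3 (1.47), Mpo (1.23), Lcn2 (1.14) and Elane (1.02) were past 2-fold higher. With those factors 520 of the 3252 genes were past 2-fold in either direction, and 80.6% of these 520 were higher. The count of members past 2-fold is therefore not read as a result about them. No member was 2-fold lower with library totals or with TMM factors. Of the other granule genes and regulators, Hp and Orm1, which encode plasma proteins of the acute phase, came close to 2-fold higher (log2 ratios of 1.00 each) and Runx1 stood at -1.14.

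The 3 stages, with 490 Lipo-Clo and 147 Lipo-PBS cells, were also given the same mixture in both libraries. Elane then stood at -0.16, Prtn3 at 0.25 and Ctsg at 1.04. Lcn2 stood at 0.72, and Camp, Ltf and Mmp8 at -0.27, -0.25 and -0.31. These are not the 567 and 206 cells of the neutrophil class, so the values are not read as changes from its ratios. The progenitor-like stage of Lipo-PBS rests on 19 cells. The part of the mixture in the primary difference was not tested.

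Stage by stage the ratios were not uniform. Nearly all primary UMIs of the stages lay in progenitor-like cells, so primary ratios there are not separate from those of the same mixture. Elane stood at -0.17 (-0.29 to -0.05) and Prtn3 at 0.23 (0.12 to 0.35) in progenitor-like cells. In progenitor-like cells Ctsg rested on 1653 UMIs of Lipo-Clo (1186 CPM) against 65 of Lipo-PBS (580 CPM), a log2 ratio of 1.03 (0.67 to 1.41), while Mpo differed by -0.05 (-0.32 to 0.23). Camp was lower in Lipo-Clo, with a log2 ratio of -0.80 (-0.85 to -0.76), as was Ltf at -0.55 (-0.85 to -0.24), and Lcn2 was higher at 0.75 (0.56 to 0.95). Behind these values stand 19 Lipo-PBS cells of a stage whose cells vary widely among themselves, and they were computed with library totals alone.

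In mature cells Lcn2 was at 5014 and 1971 CPM, a log2 ratio of 1.35 (1.07 to 1.64), and Ngp at 3656 and 1430 CPM, a ratio of 1.35 (1.03 to 1.70). Camp (0.11) and Mmp8 (0.12) had intervals that include 0. In immature cells Lcn2 was higher by 0.62 (0.53 to 0.71) and Mmp8 was lower, at -0.55 (-0.81 to -0.27). With library totals, Lcn2 was thus the 1 secondary member higher in Lipo-Clo in each of the 3 stages, with intervals clear of 0. Ngp was higher in immature cells too, at 0.32, and stood at -0.15 in progenitor-like cells. Camp stood at 0.08 (0.05 to 0.11) in immature cells, against -0.80 in progenitor-like cells. Other scaling factors were not applied stage by stage, and they could change which members are higher throughout.

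**Figure D4:**
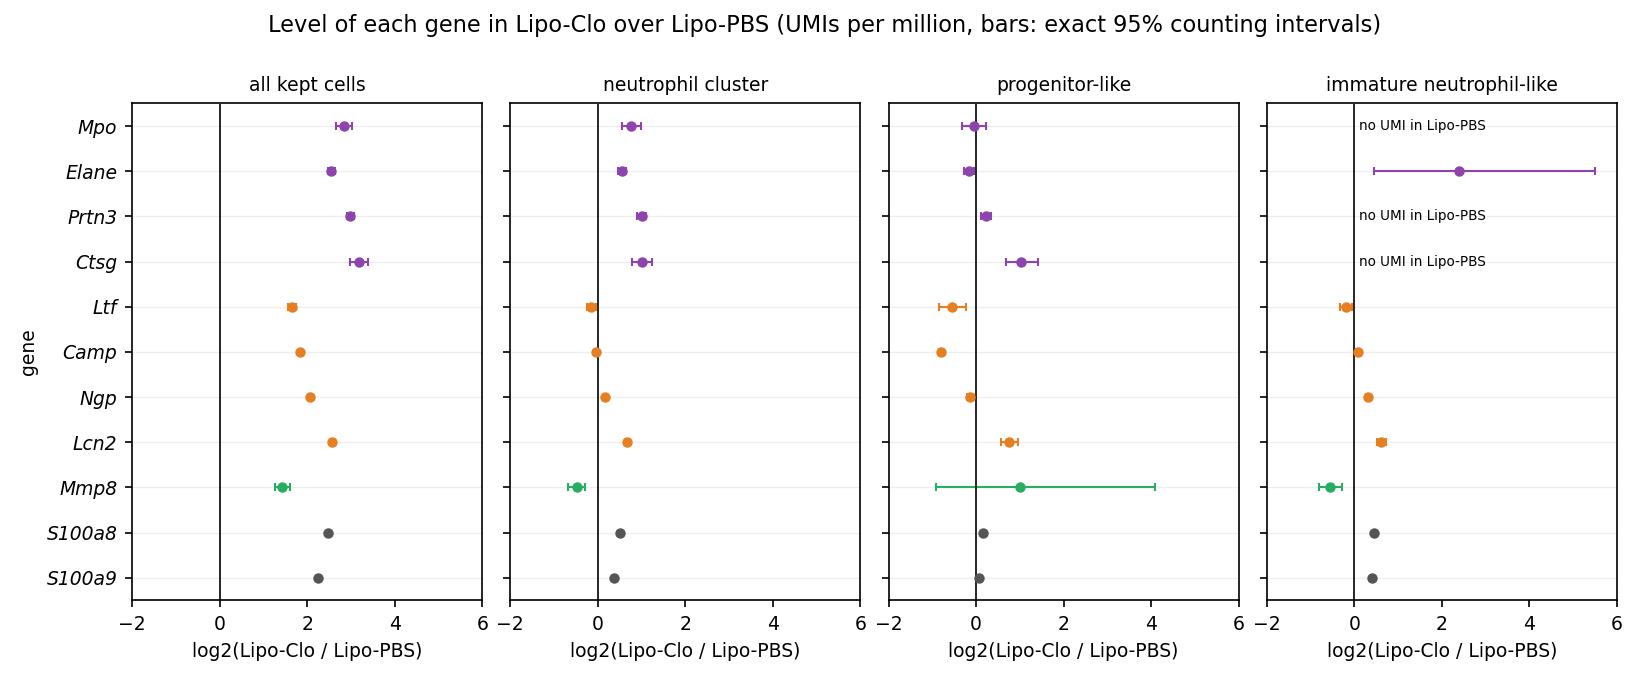
Log2 ratio of the level in Lipo-Clo over that in Lipo-PBS for each member, with exact 95% counting intervals as bars, in a panel for each set of cells. Over all kept cells every member lies at 1.43 or above, while in the neutrophil class the ratios run from -0.48 for Mmp8 to 1.01 for Ctsg.

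Outside the myeloid clusters granule transcripts formed a low layer in every class. In mesenchyme, the largest class with 3231 Lipo-Clo and 2750 Lipo-PBS cells, Camp was at 101 CPM (1168 UMIs) and 66.3 CPM (648 UMIs), a log2 ratio of 0.61 (0.47 to 0.75). Ngp was at 43.2 and 30.3 CPM, a ratio of 0.51 (0.30 to 0.72). Camp had a UMI in 28.2% of Lipo-Clo and 9.67% of Lipo-PBS mesenchymal cells, and after thinning to 500 UMIs in 5.57% (4.81 to 6.42%) and 2.07% (1.57 to 2.68%).

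Of 4894 genes compared in mesenchyme, 0.102% were at least 2-fold higher and 0.960% at least 2-fold lower in Lipo-Clo. Camp and Ngp passed that filter and neither reached 2-fold in these cells.

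A few cells set the Lipo-PBS values. Cells with at least 10 UMIs over the secondary members, S100a8 and S100a9 came to 34 for Lipo-Clo and to 20 for Lipo-PBS among the mesenchyme. The 20 cells held 389 of the 648 Camp UMIs and 198 of the 296 Ngp UMIs of Lipo-PBS, with up to 82 Camp UMIs in 1 cell. The 34 cells held 86 of 1168 and 29 of 498. For the primary members it was the Lipo-Clo cells that mattered, with 386 of 704 UMIs in the 34 cells and 0 of 90 in the 20.

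Without these cells Camp stood at 95.5 against 26.6 CPM, a log2 ratio of 1.84 (1.65 to 2.04), and Ngp at 41.4 and 10.1 CPM, a ratio of 2.04 (1.72 to 2.37). Elane was at 9.97 and 1.95 CPM. For Camp and Ngp these ratios lay close to those over all kept cells, 1.84 and 2.07. The sum of the primary members did not follow, with a low-layer ratio of 1.60 (1.26 to 1.96), nor did Prtn3 (1.08) or Mpo (1.28). Elane stood at 2.35 (1.64 to 3.14) and Ctsg at 4.48 (1.88 to 9.84), the latter with 1 Lipo-PBS UMI. Those intervals include the ratios over all kept cells, 2.55 for Elane and 3.18 for Ctsg. The cells left out were chosen by the same genes that are then counted, so the low layer has an upper bound by construction.

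The same held beyond mesenchyme. Over the 8 named classes outside the myeloid clusters, Camp in cells under 10 such UMIs ran from 85.3 to 142 CPM in Lipo-Clo. In Lipo-PBS it ran from 20.1 to 38.3 CPM. Camp was higher in Lipo-Clo clear of 0 in all 8 classes. Ngp ran from 39.3 to 56.9 and from 3.91 to 11.5 CPM and was higher in 7 of 8, T or NK cells being the exception. For Elane and Lcn2 the count was 6 classes each, for Prtn3 4, for Ctsg 3, for Mpo 2, and for Ltf and Mmp8 1 each. How many other genes would give such counts was not examined, so the counts are descriptions. The classes share their libraries and are not replicates. Camp levels of this size were thus measured in B cells, erythroid cells, epithelium and glia too, and are not read as expression by any of these classes. Their source was not tested.

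**Figure D5:**
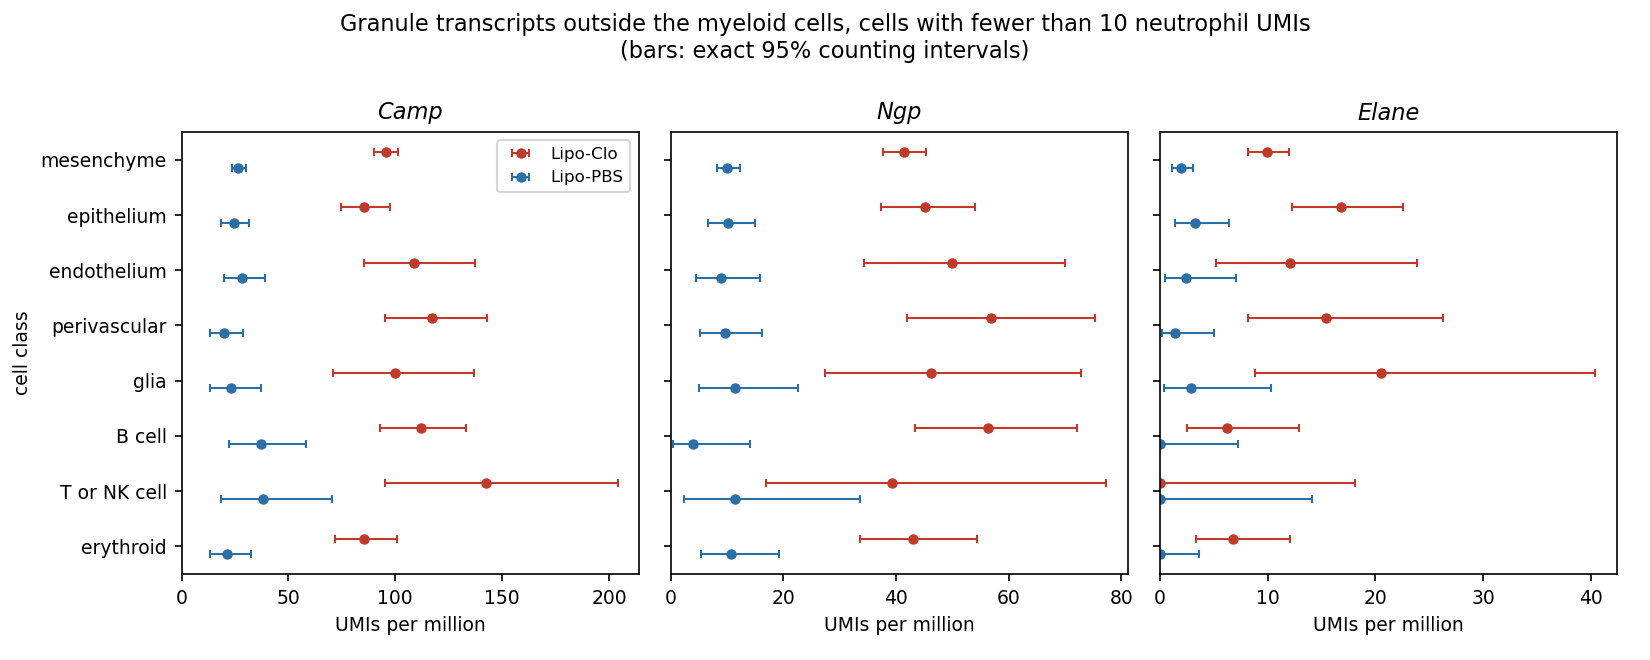
Level of granule transcripts (CPM, axis from 0) in the named classes outside the myeloid clusters, for cells with fewer than 10 neutrophil UMIs, with exact 95% counting intervals as bars. In every class Camp lies at 85.3 CPM or above in Lipo-Clo and at 38.3 CPM or below in Lipo-PBS.

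Free RNA from 1 source keeps its genes in 1 ratio, so each member was set against S100a8 and S100a9. In all mesenchymal cells the secondary members had 1.26 (1.198 to 1.333) times the UMIs per S100a8 and S100a9 UMI of the neutrophil class in Lipo-Clo, and 1.48 (1.37 to 1.59) times in Lipo-PBS. In the low layer alone, set against the 3 stages, the factor was 1.92 and 2.30. It was 2.25 and 2.50 for Camp, 1.50 and 1.90 for Ngp and 1.78 and 2.48 for Lcn2, all above 1 in both libraries. For Ltf, at 1.32 (0.87 to 1.92) and 1.86 (0.89 to 3.41), the intervals include 1. Over all mesenchymal cells, set against the neutrophil class, Ngp stood at 0.97 and 1.30 and Ltf at 1.01 and 1.25. The rich cells left out of Lipo-Clo held 1942 of 5144 S100a8 and S100a9 UMIs and 146 of 1878 secondary UMIs. The low-layer factors therefore depend on that choice of cells.

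Set against the 3 stages, the summed primary members had factors of 3.09 in Lipo-Clo and 2.19 in Lipo-PBS over all mesenchymal cells, and of 2.24 and 7.83 in the low layer. Leaving out the rich cells of Lipo-PBS took away 1388 of 1928 S100a8 and S100a9 UMIs and 0 of 90 primary UMIs, and nothing is read from the order of the libraries. A few genes departed from the layer in single classes. In Lipo-PBS epithelium 61 of 108 Ltf UMIs lay in 1 cell, and without rich cells Ltf still stood at 12.6 CPM (31 UMIs) against 3.83 CPM in Lipo-Clo, a log2 ratio of -1.72 (-2.91 to -0.65). In endothelium without rich cells Lcn2 was at 30.3 and 31.5 CPM, a ratio of -0.06 (-0.91 to 0.76).

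In Lipo-PBS 1 cluster with no name held 71.4% of the primary and 60.5% of the secondary UMIs found outside the myeloid clusters, but 35.7% of Ltf, 46.1% of Lcn2 and 34.3% of Mmp8. It held 642 Lipo-PBS and 20 Lipo-Clo cells, was led by mitochondrial genes and genes of several lineages, and had a mitochondrial share of 1.94% in Lipo-PBS, against 1.73% for that library. It carried 2394 of 3887 Camp UMIs and 162 of 205 Elane UMIs found outside the myeloid clusters of Lipo-PBS, and 131 of its 642 cells had at least 10 neutrophil UMIs. Without it the ratio over all kept cells was 2.88 for the primary and 1.96 for the secondary members, against 2.82 and 1.97 with it.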

How the data were processed

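The deposited values are whole UMI counts for each gene in each cell that the authors' pipeline called, with no normalization. The file headers name Cell Ranger 8.0.0, while the submitters' processing notes list Cell Ranger 3.1.0, Seurat 3.1.1 and the builds GRCm39 and mm39, so the version and build behind the counts are uncertain. Promoters were read from RefSeq on GRCm38.p6 by gene symbol alone. The labels give both libraries the same batch.

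Cells with under 200 genes (473 in Lipo-Clo, 748 in Lipo-PBS) or over 20% mitochondrial UMIs (3 and 11) were left out. Scrublet's automatic threshold called 0 and 1 doublets, which is too few to be believed, and the 632 and 633 highest scores (7.11% and 7.12%) were left out instead. Leiden clusters (resolution 1, leidenalg 0.10.2, Scanpy 1.11.5) used 2000 variable genes, 30 components and 20 neighbours, without members, other granule genes or regulators. Myeloid cells were clustered again at resolution 0.6, taken after 0.6, 0.8 and a finer setting had been seen. Clusters took a name from at least 3 detected markers.

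UMIs were summed per library and class and scaled to CPM. Counts carry exact Poisson intervals, shares exact Clopper-Pearson intervals, and ratios of counts exact conditional intervals, all at the 95% level. UMIs are molecules, and these intervals cover counting error only. Limits for a count of 0 used 3 counts per library. The ratio script was tested on simulated counts. Genes named are the 9 members, further granule genes and regulators by stage, and per class the 5 genes most alike over the myeloid subclusters. Likeness was the Pearson correlation of log2(CPM + 10) over subclusters with at least 10 cells in a library, among genes with at least 50 UMIs. The members and lists were chosen with earlier results of these data known. Tried beside these were keeping the doublets, a stricter filter (500 genes or more, mitochondrial UMIs of 10% or less), keeping every cell, clusters formed with granule genes, resolution 2, other totals, edgeR 4.0.16 TMM factors and DESeq2 1.42.0 size factors. Leaving out the neutrophil-rich cells or the unnamed cluster, counting unnamed clusters as mesenchyme, using the 3 stages and the same stage mixture, leaving out the cell richest in granule UMIs from a class, and the subcluster and cell cutoffs were added after the data had been seen.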

Additional observations from a re-analysis of the deposited data

How the results depend on the processing

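No paired analysis was possible because there was 1 library for each condition, and for the same reason no replicate could be left out. The secondary log2 ratio in neutrophils, 0.08, was 0.17 with doublets kept, 0.11 with the stricter filter on cells, 0.39 with clusters formed with granule genes, 0.060 at Leiden resolution 2 and 0.015 with reduced totals (mitochondrial, haemoglobin and ribosomal protein genes left out). It was 0.54 with TMM and 0.55 with DESeq2 factors, and -0.23 over the 3 stages and -0.054 over them in the same mixture, so its sign is not fixed. Over all kept cells the primary ratio, 2.82, was 2.73 with doublets kept, 2.77 with every deposited cell and 2.88 without the unnamed cluster, and the secondary ratio, 1.97, was 1.95 with doublets kept, 1.91 with the stricter filter, 1.99 with every deposited cell and 1.94 with the reduced totals.

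In mesenchyme the secondary ratio, 0.62, was 1.10 with the stricter filter, 1.82 with clusters formed with granule genes, 0.75 at resolution 2, 1.04 with unnamed clusters counted as mesenchyme and 1.92 without neutrophil-rich cells. The secondary UMIs per S100a8 and S100a9 UMI, relative to neutrophils, were 1.26 in Lipo-Clo and became 1.55 with doublets kept, 1.53 with granule genes and 1.87 without rich cells, and 1.48 in Lipo-PBS became 1.34 at resolution 2 and 2.01 without rich cells. Genes past 2-fold in neutrophils numbered 458 (17.2% of them higher in Lipo-Clo), 852 with the stricter filter and 1743 with a filter of 20 UMIs, and with TMM factors 520, of which 80.6% were higher. The share of progenitor-like cells stayed between 2.68 and 3.30 in log2 ratio, and that of cells rich in primary UMIs, over cutoffs of 3, 10 and 50 and the filters on cells, between 1.95 and 2.46. Of 146 single-gene values 76 stayed within the counting interval. The causes of the moves were not tested. The immature and mature cells of Lipo-PBS held 2 primary UMIs, so ratios of single primary genes there have wide intervals or none.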

Other observations

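Some mixed myeloid subclusters were led by genes of another cell class. A subcluster led by fibroblast genes such as Eln and Dcn, with 42 Lipo-Clo and 111 Lipo-PBS cells, held 10034 and 3549 secondary UMIs. A subcluster led by ameloblast genes such as Odam and Ambn, with 22 and 7 cells, held 4258 and 234, and one led by B cell genes, with 29 and 13 cells, held 1865 and 1648. The median depths of these 3 were 3007 to 3857 UMIs per cell.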
